A study of Danio rerio with 16 samples.

Results

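DNA methylation of the whole zebrafish caudal fin was compared between 2 days post-amputation (dpa) and the uninjured fin (0 dpa), with 2 libraries of whole genome bisulfite sequencing in each group. The genome was divided into tiles of 500 bp, and a tile was kept when each of the 4 libraries had at least 10 calls in it, a call being 1 read over 1 CpG. This kept 1622035 of the 2631724 tiles that hold a CpG, or 61.6%, on all 25 chromosomes. The kept tiles held 75.7% of the 23997221 CpGs, with a median of 10 CpGs per tile. The level of a tile is the percentage of its calls that read as methylated, and a difference between levels is given in percentage points.

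The 2 dpa tissue was labelled as the blastema of the regenerating fin, and the 0 dpa tissue was uninjured fin. The paper describes its samples of regenerating fin as mixtures of blastema and wound epidermis. All fish of the series carried Tg(sp7:EGFP), a transgene that puts EGFP under control of sp7, a transcription factor gene of differentiating and mature osteoblasts, and the fish were adult. The tiles were also read in the series' other libraries, namely 4 of whole fin (1 and 4 dpa) and 8 of sorted cells. The sorted cells were sp7+ (with EGFP) or sp7- (without EGFP), each taken at 4 dpa and at 0 dpa in 2 libraries. No sorted library was taken at 2 dpa. Both gates rest on the transgene's fluorescence, so the sp7- cells are every cell type without it, and these counts gave no check of the labels against marker genes. Whole fin is a mixture, so a change in the share of a cell type and a change within its cells cannot be told apart in these libraries.

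Depth was 133964125 and 117991918 calls in the 2 dpa libraries, against 130725802 and 153260623 calls in those of 0 dpa, a mean coverage of 4.92 to 6.39 reads per CpG. A kept tile had a median of 47 to 63 calls in a library. In 1014602 of the tiles each of the 4 libraries reached 30 calls, and results that depend on counting error are given for these deeper tiles too. The sorted libraries were deeper, with a mean coverage of 8.28 to 19.7 reads. The sources used here do not say how many fish each whole fin library came from, so the spread given is that between libraries. Counting intervals would understate it, since 1 read over several CpGs gives several calls. Between replicates, the squared tile difference divided by its counting variance averaged 1.395 at 2 dpa and 1.49 at 0 dpa.

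In vertebrates most CpGs are methylated. CpG-rich promoters and other unmethylated islands are the main exception. Between these lie stretches of intermediate level, many of them distal regulatory elements whose methylation differs between cell types, so that a tissue shows the average of its cells. After amputation a fin is first covered by wound epidermis, and a blastema of proliferating cells with restricted lineages then forms beneath it and rebuilds rays and soft tissue.

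The genome-wide comparison asked whether the overall level moved by 2 dpa. Over the kept tiles the level was 78.1% and 78.5% in the 2 dpa libraries, against 77.5% and 77.2% in those of 0 dpa. Both 2 dpa libraries thus lay above both 0 dpa libraries. The mean was 78.3% ± 0.309 for 2 dpa, against 77.4% ± 0.214 for 0 dpa (SD over 2 libraries), a difference of 0.916 points. An exact two-sided permutation test gave p = 0.333, which is the smallest p that 2 libraries against 2 allow. The median tile was 0.50 points higher at 2 dpa, with quartiles of -2.98 and 4.59 points, and 85.2% of tiles differed by less than 10 points (91.8% of the deeper tiles). Both libraries of 2 dpa were above both of 0 dpa in 19.7% of tiles and below both in 14.8%.

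The difference depended strongly on the level from which a tile started. To keep chance lows of a library out of its own difference, tiles were sorted into steps of 10 points by 1 library of 0 dpa and compared with the other, both ways round. Tiles that started at 20 to 40% gained most, by 4.60 points at 20 to 30% (5.08 and 4.12 points for the 2 ways) and 4.56 points at 30 to 40%. In the tiles of 20 to 30% the 2 dpa libraries stood at 33.6% and 31.9%, against 27.7% in the second 0 dpa library, and at 34.1% and 32.4%, against 29.1% in the first. The gain was 3.32 points at a start of 10 to 20%, 3.77 points at 40 to 50% and 2.96 points at 50 to 60%. It shrank further through 2.19 and 1.41 points to 0.50 points at 80 to 90%.

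At both ends of the scale there was little or no gain. Tiles that started under 10%, the class of unmethylated promoters and islands, differed by 0.142 points, with 2.64% and 2.53% at 2 dpa against 2.43% at 0 dpa when sorted by replicate 1. Tiles that started at 90% or more lay 0.282 points lower at 2 dpa (-0.167 and -0.398 points for the 2 ways). Sorting the tiles by the sp7- cells of 0 dpa, libraries that took no part in the difference, gave the same shape. The gain was then 4.93 points at 20 to 30%, with 35.1% and 33.2% at 2 dpa and 29.7% and 28.75% at 0 dpa, and the 2 dpa libraries lay above both of 0 dpa in every step below 90%. From 90% they lay below both, at 91.5% and 91.8% against 92.2% and 91.9%. Sorted by the sp7+ cells the largest gain was 4.65 points, again at 20 to 30%.

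The sorted cells, read by the level of whole fin at 0 dpa, showed where a like pattern stood at 4 dpa. In sp7- cells, tiles at 20 to 30% in uninjured whole fin were 4.63 points higher at 4 than at 0 dpa, with 27.8% and 29.2% against 24.3% and 23.4%. In sp7+ cells the same tiles differed by 1.85 points, with 22.9% and 22.6% against 21.2% and 20.6%. Both cell types were thus higher without overlap of libraries, and the sp7- difference was larger. At 10 to 20% the differences were 2.89 points in sp7- and 0.536 points in sp7+ cells. Tiles above 60% were lower at 4 dpa in both, by -2.32 points in sp7- and -2.905 points in sp7+ cells at 70 to 80%, a range in which whole fin was higher at 2 dpa. Whether the 2 cell types differed in these changes was not tested, and the time points differ from those of whole fin.

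**Figure D1:**
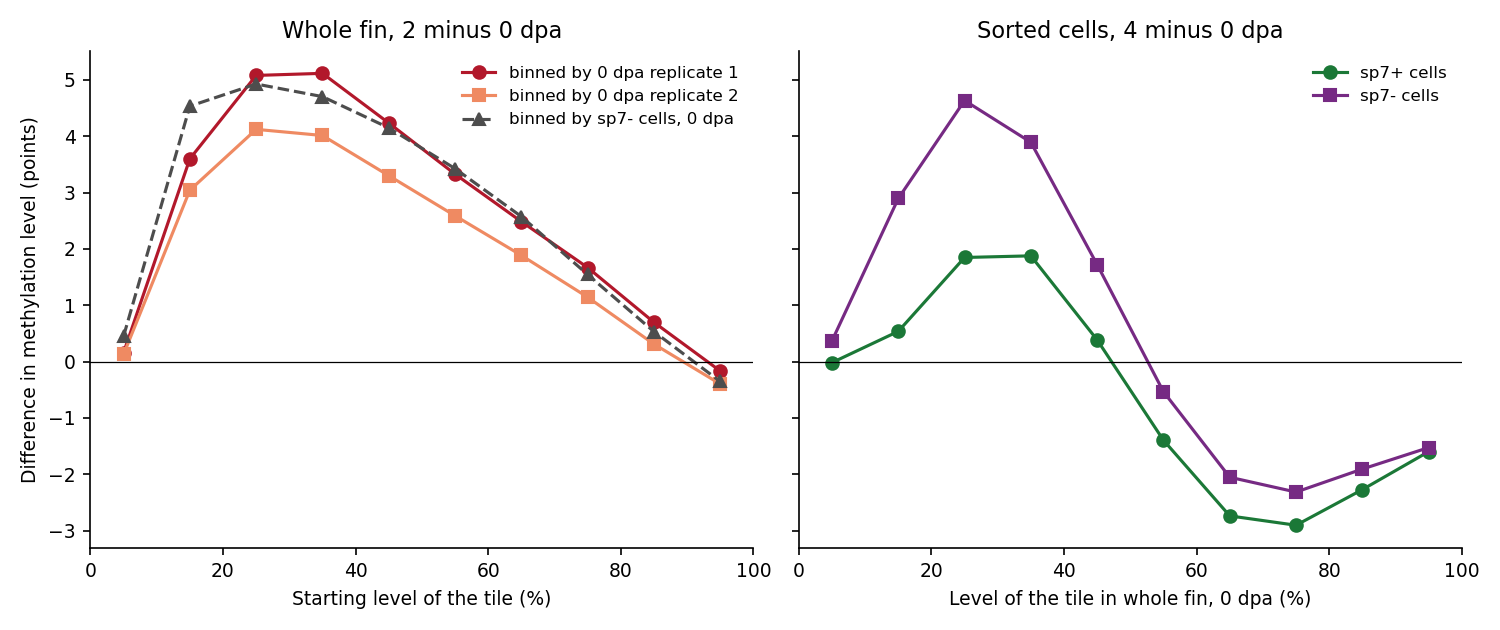
Difference in methylation level (points, y axis) by the starting level of the tile in steps of 10 points (x axis). Left, whole fin at 2 minus 0 dpa with tiles sorted by either 0 dpa library or by sp7- cells of 0 dpa; the gain peaks at 20 to 40% and is near 0 at both ends. Right, sp7+ and sp7- cells at 4 minus 0 dpa by the level of whole fin at 0 dpa; both rise at low to intermediate levels, sp7- cells by up to 4.63 points, and are lower at 4 dpa above 60%.

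CpG density gave a second gradient, most of it from replicate 1 of 2 dpa. The gradient ran from 3 CpGs up, while the sparsest tiles, of 1 to 2 CpGs, were 1.32 points higher at 2 dpa. Tiles of 3 to 4 CpGs were 1.36 points higher, with 74.15% and 74.0% against 73.1% and 72.3% at 0 dpa. The difference was 1.157 points for 5 to 9 CpGs, 0.948 points for 10 to 19 and 0.638 points for 20 to 39 CpGs, in each case without overlap of the libraries. In the 10150 tiles of 40 or more CpGs the libraries did overlap, at 69.99% and 71.35% for 2 dpa against 70.5% and 70.4% for 0 dpa. The 2 dpa replicates differed by more in these dense tiles than the groups did. The same held for 20 to 39 CpGs, with 2 dpa replicates at 76.4% and 77.5%. Without replicate 1 of 2 dpa the difference was 1.19 points for 5 to 9 CpGs and 0.918 points for 40 or more. Without replicate 2 of 2 dpa it was 1.117 and -0.445 points, so the direction turned in the dense tiles.

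Starting level and density were then crossed, with the start taken from sp7- cells of 0 dpa. Within tiles of 10 to 40% the gain was similar from 3 to 39 CpGs, at 4.31, 4.77, 5.005 and 4.06 points for the 4 density classes. Within tiles of 40 to 70% it was 2.78, 2.865, 3.29 and 3.31 points over the same classes, a small rise with density. The fall with density that all tiles showed was thus not seen over these classes at these 2 levels. In tiles of 70 to 100%, which hold most of the genome, the difference did fall with density, with 0.526 points for 3 to 4 CpGs, 0.479 for 5 to 9, 0.371 for 10 to 19, 0.108 for 20 to 39 (with overlap of libraries) and -0.328 for 40 or more CpGs. Tiles of 1 to 2 CpGs lay outside this fall, at 0.288 points with overlap. Among unmethylated tiles (under 10%) a fall was also seen from 3 CpGs up. Sparse tiles of 3 to 4 CpGs gained 2.50 points and dense tiles of 20 to 39 CpGs gained 0.192 points. Those of 1 to 2 CpGs gained 1.33 points. In the unmethylated dense tiles the level was 2.11% and 2.08% at 2 dpa against 1.90% and 1.91% at 0 dpa, a small difference without overlap. The level itself varied with density within these outer classes. In tiles of 70 to 100%, mean whole fin levels at 0 dpa rose from 82.4% for 3 to 4 CpGs to 91.7% for 40 or more. Under 10% they fell from 8.04% for 3 to 4 CpGs to 1.90% for 20 to 39. Density and starting level were thus not separated in these classes.

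All 25 chromosomes were higher at 2 dpa, and on each of them both 2 dpa libraries lay above both 0 dpa libraries, whereas after centring, which takes the genome-wide difference from every tile, 1 chromosome did. The difference was largest on chromosomes 1 (1.305 points), 14 (1.301 points) and 11 (1.231 points). On chromosome 1 the libraries stood at 77.3% and 77.8% for 2 dpa against 76.2% and 76.35% for 0 dpa. On chromosome 11 the 0 dpa replicates were far apart, at 78.4% and 76.7%, and that gap of 1.75 points exceeds the difference between the groups. Without replicate 2 of 0 dpa the difference on chromosome 11 was 0.324 points. The smallest differences were those of chromosomes 6 (0.473 points), 18 (0.530 points) and 2 (0.533 points). Replicates of a chromosome differed by a median of 0.471 points at 2 dpa and 0.345 points at 0 dpa.

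In windows of 5 Mb the shift was equally wide. Of 277 windows with at least 1000 kept tiles, 271 had the higher mean at 2 dpa, and in 222 (80.1%) the libraries did not overlap. The median window was 0.932 points higher. The largest differences were 2.17 points at 35000000 to 39999999 on chromosome 19, with 78.9% and 79.0% at 2 dpa against 77.0% and 76.5% at 0 dpa, 2.07 points at 5000000 to 9999999 on chromosome 11, and 2.01 points at 30000000 to 34999999 on chromosome 1. The window of chromosome 11 again rested on 1 library, with 80.15% and 77.6% in the 0 dpa replicates, and gave 0.787 points without replicate 2 of 0 dpa. At the other end stood windows of chromosome 6, at 20000000 to 24999999 (-0.551 points) and 10000000 to 14999999 (-0.447 points), and of chromosome 18, at 20000000 to 24999999 (-0.1825 points). Only the first of these 3 had no overlap, with 81.3% and 81.7% at 2 dpa against 81.8% and 82.2% at 0 dpa. Positions are given as deposited, on the build GRCz10, and no annotation of this build was at hand to name genes.

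**Figure D2:**
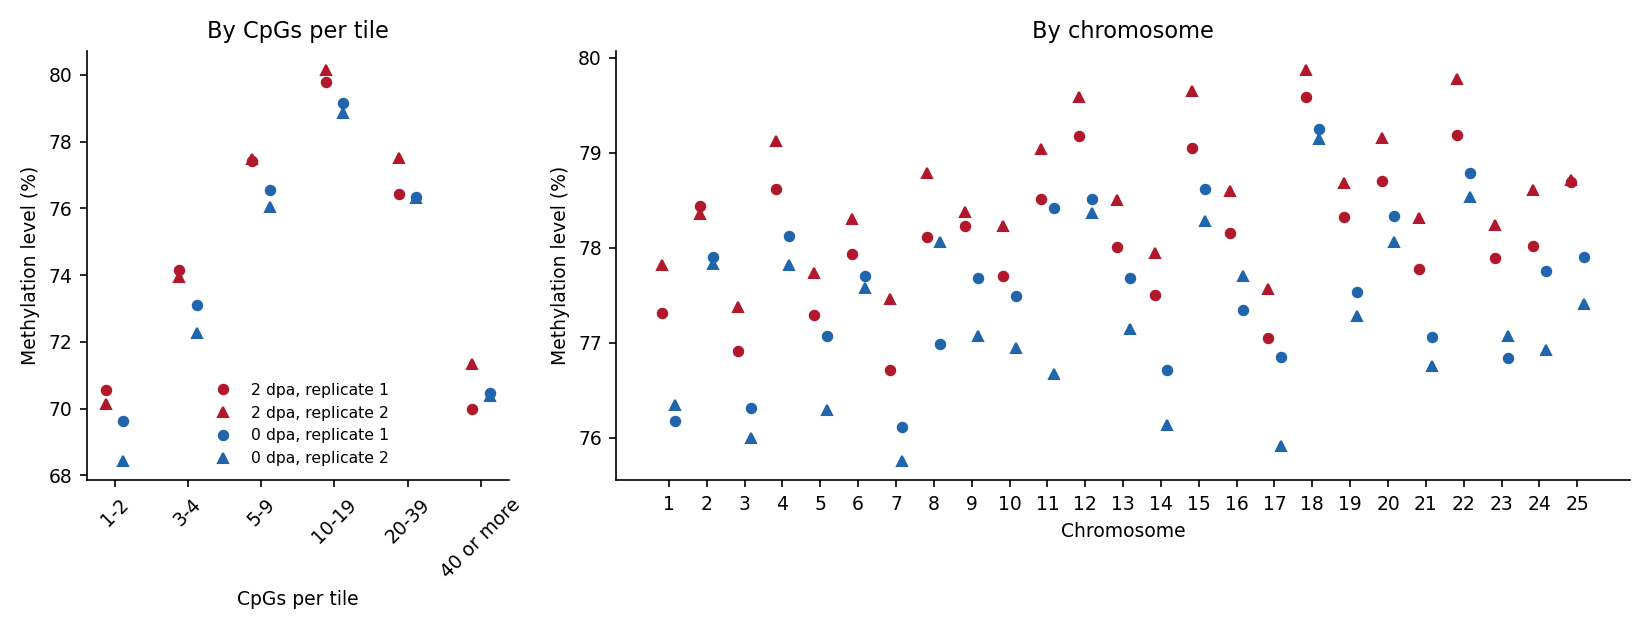
Methylation level in percent (y axes, not starting at 0) of the 4 libraries by CpGs per tile (left) and by chromosome (right); red is 2 dpa, blue is 0 dpa, and symbols mark replicates. The 2 dpa libraries lie above those of 0 dpa in every class but tiles of 40 or more CpGs, and on all 25 chromosomes (on 1 after centring).

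The next question was whether single tiles changed. A weighted fit of the transformed level over the 8 whole fin libraries, with the spread shrunk by limma, called 0 of 1622035 tiles higher and 0 lower at 2 dpa (0% in each direction) with a call needing an adjusted p (Benjamini-Hochberg) below 0.05 together with more than 25 points between the means. The smallest limma adjusted p was 0.201. At an unadjusted p under 0.05 stood 105824 tiles (6.52%), of which 66458 were higher and 39366 lower at 2 dpa, against 49075 higher and 55930 lower after centring. Without replicate 1 of 0 dpa limma called 1 tile, and without replicate 2 it called 5, all higher at 2 dpa. The quasi-likelihood test of edgeR on methylated and unmethylated counts of the same tiles called 27 tiles higher (0.00166% of tiles tested) and 10 lower (0.000617%), and these are described below with the largest changes. Between single libraries, a whole fin library of 2 dpa was little farther from one of 0 dpa than from its own replicate. In the deeper tiles the SD of tile differences was 7.56 to 7.75 points over the 4 pairs across time, against 7.39 points between the 2 dpa replicates and 7.30 points between those of 0 dpa.

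Changed tiles were therefore taken as a description, with no test. They are tiles whose mean level differed by more than 25 points and in which both 2 dpa libraries lay on the same side of both 0 dpa libraries. There were 7930 rising tiles (0.489% of those kept) and 3561 falling tiles (0.22%). Between single libraries, 44578 to 50834 tiles differed by more than 25 points over the 4 pairs across time, against 44921 between the 2 dpa replicates and 40931 between those of 0 dpa. In the deeper tiles the counts were 8432 to 8739 across time, against 6379 and 6537 between replicates. Changed tiles were sparse and shallow, with a median of 6 CpGs against 10 in all tiles, and a median of 15 calls (rising) and 14 calls (falling) in their shallowest library. Among the deeper tiles 1183 rose and 344 fell by this rule. Many tiles lay at the limit, with 1470 rising tiles less than 1 point inside it and 1670 less than 1 point outside, and 697 and 808 for falling tiles. After centring 6522 tiles rose and 4361 fell.

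How far such changes carry over from library to library was read by choosing tiles in 1 pair of libraries (1 of 2 dpa against 1 of 0 dpa) and reading them in the other pair, for all 4 choices of the pair. This reading was added after the data had been seen. Tiles more than 25 points higher at 2 dpa in the chosen pair were on average 2.455 to 3.52 points higher in the other pair, and 55.9% to 59.2% of them were higher there, against 50.9% to 53.7% of all tiles. Tiles more than 25 points lower had a mean difference of -0.107 to 1.23 points in the other pair, and 45.95% to 49.1% of them were lower there, against 44.7% to 47.6% of all tiles. The mean change in the other pair was thus a small part of the change that chose the tiles. A minority passed 25 points again in the same direction, 7.08% to 7.945% of rising tiles, against 1.72% to 1.93% of all tiles. For falling tiles the share was 4.49% to 6.465%, against 0.918% to 1.32% of all tiles. All tiles are not a like baseline, since differences over 25 points were less frequent in the deeper tiles. Passing 25 points in the opposite direction was not counted, so how far these shares reflect carry-over was not tested. In the deeper tiles the means in the other pair were 3.68 to 4.95 points for rising tiles and -2.03 to 0.259 points for falling tiles. Over all tiles that mean was 0.635 to 1.19 points, and over all deeper tiles 0.622 to 1.055 points. Of the deeper rising tiles 4.6% to 5.24% passed 25 points again, beside 0.569% to 0.630% of all deeper tiles. For deeper falling tiles it was 3.56% to 4.94%, beside 0.2075% to 0.288%. Starting level was not matched in these readings.

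Rising and falling tiles were then read in the 12 libraries that had not chosen them. Rising tiles stood at 68.4% and 69.9% at 2 dpa, against 40.7% and 40.4% at 0 dpa, values fixed by the choice. In whole fin they stood at 58.4% in both libraries at 1 dpa and at 54.85% and 54.4% at 4 dpa. A place between the 2 groups that chose them is favoured by the choice itself, so no course in time is read from it. Rising tiles in sp7- cells were at 55.8% and 53.6% at 4 dpa, against 53.7% and 52.2% at 0 dpa. In sp7+ cells they were at 51.5% and 50.3% at 4 dpa, against 52.65% and 50.6% at 0 dpa. In neither cell type did the time points separate. All tiles together were lower at 4 dpa by a mean of -1.23 points in sp7- cells and -2.52 points in sp7+ cells. The sp7- libraries overlapped there, at 78.6% and 76.2% at 4 dpa against 78.95% and 78.3% at 0 dpa. Tiles in general at 40 to 50% in whole fin at 0 dpa were 1.72 points higher in sp7- cells without overlap. In sp7+ cells they differed by 0.3845 points with overlap. At 0 dpa, whole fin minus sp7- cells was -12.4 points in rising tiles, and whole fin minus sp7+ cells was -11.1 points. Over all tiles these differences were -1.26 and -2.32 points. Low levels in whole fin at 0 dpa were part of the choice of rising tiles, which favours such a gap.

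Falling tiles stood at 47.8% and 45.7% at 2 dpa, against 75.8% and 74.8% at 0 dpa. In whole fin they were at 63.3% and 63.8% at 1 dpa and at 59.9% and 60.4% at 4 dpa, again a place that the choice favours. At 0 dpa whole fin lay 7.59 points above sp7- cells and 6.94 points above sp7+ cells in these tiles, a gap that the choice favours too. In sp7- cells they were at 63.3% and 61.2% at 4 dpa, against 67.6% and 67.8% at 0 dpa, a difference of -5.43 points. In sp7+ cells they were at 64.7% and 64.0% at 4 dpa, against 68.4% and 68.3% at 0 dpa, or -4.01 points. Tiles in general at 70 to 80% in whole fin at 0 dpa differed by -2.32 points in sp7- and -2.905 points in sp7+ cells, without overlap. Falling tiles were likewise lower at 4 dpa in both cell types without overlap. The size depended on the libraries that chose the tiles, since without replicate 1 of 2 dpa the differences were -2.86 points in sp7- and -2.47 points in sp7+ cells, the sp7+ value being no larger than that of all tiles, and without replicate 1 of 0 dpa they were -3.25 and -2.70 points.

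The deeper tiles set the cell types farther apart. The 344 deeper falling tiles were at 57.5% and 53.65% in sp7- cells at 4 dpa, against 67.2% and 67.9% at 0 dpa, a difference of -12.0 points. In sp7+ cells they were at 63.2% and 62.1%, against 70.3% and 69.6%, a difference of -7.32 points. Of these tiles 80.2% were lower at 4 dpa in sp7- cells, beside 67.1% of all deeper tiles, and 16.3% were lower by more than 25 points, beside 0.119% of all deeper tiles. In sp7+ cells 73.55% were lower, beside 70.97% of all deeper tiles, and 4.94% by more than 25 points, beside 0.0386%. The 1183 deeper rising tiles were 3.99 points higher in sp7- cells, with 46.7% and 45.02% at 4 dpa against 42.9% and 40.8% at 0 dpa, and 65.3% of them were higher there, beside 32.9% of all deeper tiles. In sp7+ cells they differed by 0.0275 points, with 40.4% and 39.6% at 4 dpa against 41.25% and 38.75% at 0 dpa, while 55.7% of the tiles were higher, beside 29.0% of all deeper tiles. The share of tiles that were higher thus exceeded that of all deeper tiles in both cell types. The deeper rising tiles stood at 33.85% and 33.99% in whole fin at 0 dpa, below most tiles. Tiles in general at 30 to 40% there were higher at 4 dpa too, by 3.89 points in sp7- and 1.88 points in sp7+ cells. Whether the rising tiles differ from other tiles of their level was not tested. At 4 dpa the difference of sp7+ minus sp7- cells was -5.84 points for the deeper rising tiles and 7.06 points for the deeper falling tiles.

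**Figure D3:**
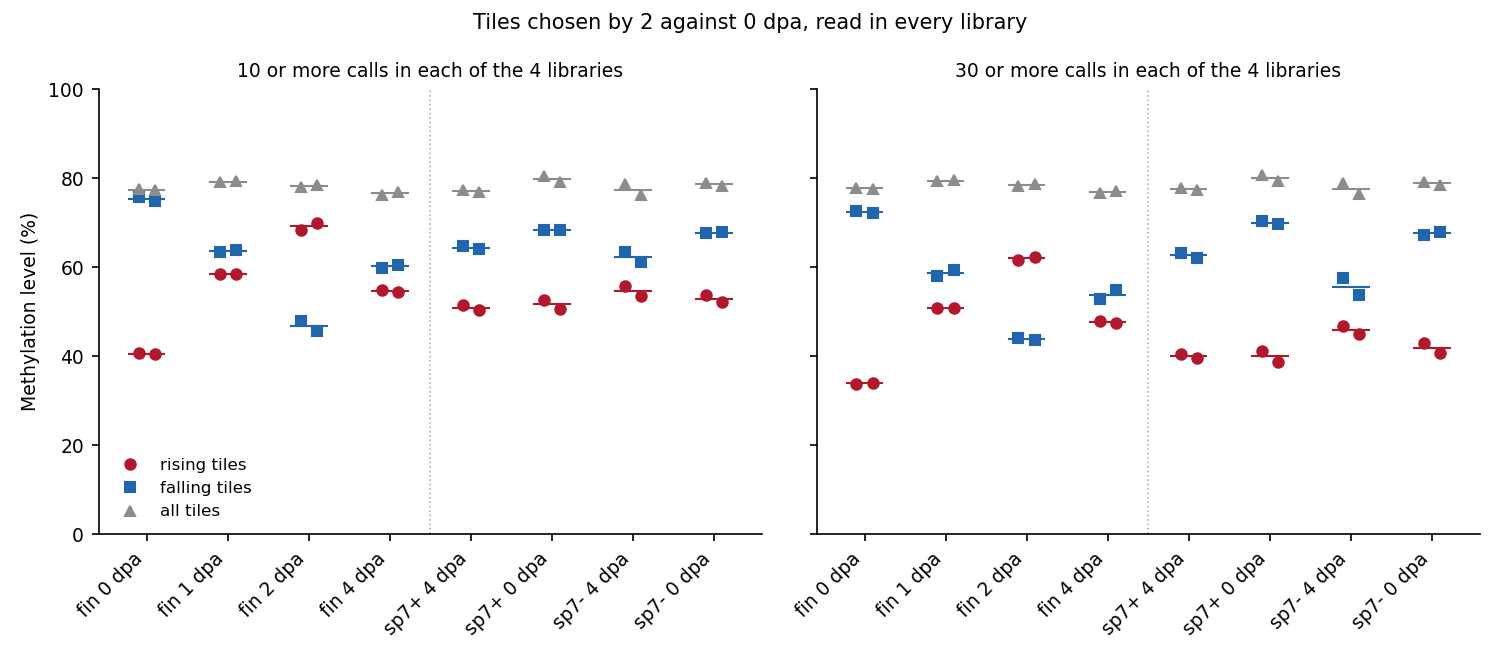
Methylation level in percent (y axis) of rising tiles (red), falling tiles (blue) and all tiles (grey) in each of the 16 libraries (points) with group means (lines), for all changed tiles (left) and those with 30 or more calls (right). Whole fin at 0 and 2 dpa chose the tiles. In the other groups the 2 sets lie between, a place that the choice favours. The falling tiles with 30 calls are at 53.65% to 57.5% in sp7- cells at 4 dpa against 67.2% to 67.9% at 0 dpa.

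Tests in the sorted cells, fitted over their 8 libraries with limma and adjusted over 1611256 tiles, counted changed tiles among those called. Of tiles lower at 4 than at 0 dpa in sp7- cells, limma called 952 (0.0591% of tiles tested), and 79 of 3437 falling tiles (2.30%) were among them. Of those lower in sp7+ cells it called 224 (0.0139%), with 13 falling tiles (0.378%). Of those higher, 232 (0.0144%) were called for the sp7- and 228 (0.0142%) for the sp7+ cells, with 9 and 6 of 7668 rising tiles (0.117% and 0.0783%). In the deeper falling tiles limma called 43 of 344 (12.5%) lower for the sp7- cells, beside 0.0689% of all deeper tiles. For the sp7+ cells it called 11 of 344 (3.20%), beside 0.0136% of all deeper tiles.

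Between cell types, limma called 6299 tiles lower in sp7+ than in sp7- cells at 0 dpa (0.391%) and 5349 at 4 dpa (0.332%). Of rising tiles 182 (2.37%) and 185 (2.41%) were among these, and of falling tiles 38 (1.11%) and 28 (0.815%). Tiles higher in sp7+ cells numbered 878 at 0 dpa (0.0545%) and 1665 at 4 dpa (0.103%), and included 14 and 19 rising tiles (0.183% and 0.248%) and 6 and 56 falling tiles (0.175% and 1.63%). So 1.63% of falling tiles were called higher in sp7+ cells at 4 dpa, beside 0.103% of all. Changed tiles lay at intermediate levels, and whether their shares exceed those of other tiles of that level was not tested.

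A smaller class of rising tiles was unmethylated in the sorted cells of the uninjured fin. In 46577 tiles both sorted cell types were under 10% at 0 dpa, and 122 of these tiles rose while 5 fell. Rising tiles were not frequent there, since these tiles made up 1.54% of rising tiles and 2.87% of all tiles. The 122 tiles were at 40.7% and 41.6% in whole fin at 2 dpa, against 13.2% and 12.9% at 0 dpa, and they stood at 26.9% and 26.8% at 1 dpa and 25.1% and 24.2% at 4 dpa. In sp7- cells they were at 17.1% and 18.4% at 4 dpa, against 7.41% and 5.91% at 0 dpa, a difference of 11.1 points. In sp7+ cells they were at 6.17% and 5.275% at 4 dpa, against 4.24% and 4.19% at 0 dpa, a difference of 1.51 points. Low levels in the sorted cells at 0 dpa were part of the choice, which favours a rise from that time, so these differences are a description. Over all 46577 tiles, rising or not, sp7- cells differed by 0.725 points between 4 and 0 dpa and sp7+ cells by 0.104 points. Whole fin was there at 3.07% and 2.90% at 2 dpa, against 2.59% and 2.55% at 0 dpa. A further set was all 45649 tiles under 10% in whole fin at 0 dpa, again rising or not. In that set sp7- cells differed by 0.368 points between 4 and 0 dpa without overlap, and sp7+ cells by -0.0190 points with overlap.

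The whole fin change was also read over all tiles by what the sorted cells showed, so that whole fin had no part in the grouping. This too was added after the data had been seen. The 219 tiles that were over 40 points lower at 4 than at 0 dpa in sp7- cells were at 49.9% and 50.5% in whole fin at 2 dpa, against 66.8% and 63.6% at 0 dpa, a difference of -15.1 points. The 3834 tiles lower by 25 to 40 points differed by -4.20 points. These groups started at means of 65.2% and 66.7% in whole fin, and tiles in general gained 2.185 points from 60 to 70%. Tiles higher by 25 to 40 points (2070) and by over 40 points (63) were 5.43 and 6.08 points higher. They started at 42.4% and 42.3% in whole fin, and tiles in general gained 3.77 points from a start of 40 to 50%. The same grouping by sp7+ cells gave 0.443 points for the 1800 tiles lower by 25 to 40 points, with overlap of libraries, and 4.695 points for the 1549 tiles higher by 25 to 40 points. At the ends it gave -13.6 points for 26 tiles over 40 points lower and 6.80 points for 28 tiles over 40 points higher, both without overlap and close in size to those by sp7- cells. Whether these groups differ from other tiles of their starting level was not tested.

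The whole fin change also varied with the difference between cell types. Tiles over 40 points lower in sp7+ than in sp7- cells at 0 dpa (1633) were 5.50 points higher in whole fin at 2 dpa, with 71.9% and 70.8% against 66.3% and 65.4% at 0 dpa. Tiles within 5 points between the cell types at 0 dpa were 0.591 points higher, and tiles higher in sp7+ cells by 5 to 15, 15 to 25 and 25 to 40 points were 1.77, 2.80 and 2.515 points higher. By the 0 dpa difference, whole fin thus gained on both sides. Grouped by the difference at 4 dpa, such tiles (759) were 6.57 points higher, while the 3011 tiles that were 25 to 40 points higher in sp7+ cells differed by -2.24 points in whole fin, with 58.6% and 59.3% at 2 dpa against 62.1% and 60.3% at 0 dpa. The 83 tiles over 40 points higher in sp7+ cells differed by -5.57 points. In tiles with little difference between the cell types at 4 dpa (within 5 points) the whole fin change was 0.620 points. These groups also differ in their level, and a shift in the share of cell types in the tissue was not measured.

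**Figure D4:**
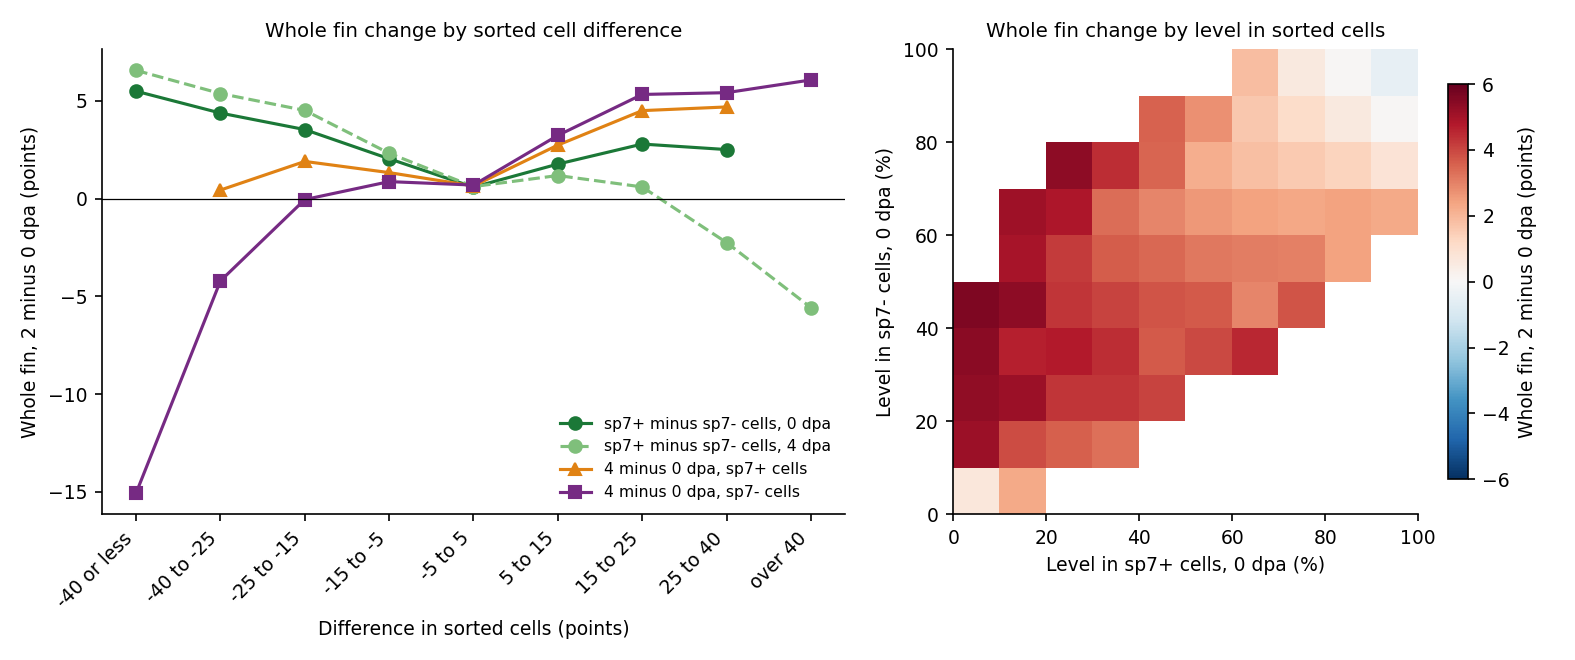
Left, whole fin difference at 2 minus 0 dpa (points, y axis) of tiles grouped by a difference in sorted cells (x axis), for groups of at least 50 tiles; it runs from -15.1 points where sp7- cells were over 40 points lower at 4 dpa to 6.08 points where they were over 40 points higher. Right, mean whole fin difference (colour, points) by the level of the tile in sp7+ (x axis) and sp7- cells (y axis) at 0 dpa, for squares of at least 200 tiles; it is near 0 where both are under 10% or above 80% and positive between.

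Tiles that limma called in sorted cells followed a course in whole fin. The 952 tiles lower at 4 dpa in sp7- cells had levels of 67.4% ± 1.76 in uninjured fin, 66.2% ± 0.815 by 1 dpa, 58.9% ± 0.465 by 2 dpa and 50.9% ± 0.504 by 4 dpa (SD over 2 libraries), and 21.95% of them were higher at 2 than at 0 dpa. The 224 tiles lower at 4 dpa in sp7+ cells were at 68.9% ± 0.992, 72.2% ± 0.465, 67.05% ± 0.973 and 59.35% ± 1.48 at the same times, and 49.55% of them were higher at 2 than at 0 dpa, with a median difference of -0.157 points. By 2 dpa the difference from 0 dpa was thus -8.53 points for the sp7- tiles and -1.83 points for the sp7+ tiles. Tiles in general gained 2.185 points from a start of 60 to 70%. Tiles called higher at 4 dpa were higher in whole fin at 2 dpa for both cell types, by 6.16 points for sp7- (232 tiles) and 5.36 points for sp7+ cells (228 tiles). These tiles started at 38.5% and 52.3% in whole fin. Tiles in general gained 4.56 points from a start of 30 to 40% and 2.96 points from 50 to 60%. All tiles together were at 77.4%, 79.2%, 78.3% and 76.6% at 0, 1, 2 and 4 dpa. Whether the called tiles differ from other tiles of their level was not tested. The 5349 tiles lower in sp7+ than in sp7- cells at 4 dpa were at 50.9% ± 0.561, 52.9% ± 0.512, 56.6% ± 1.33 and 57.1% ± 0.724, so that at 2 dpa they were near their level at 4 dpa.

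Adjacent tiles that moved together were read as longer regions. There were 73 runs of 2 or more adjacent rising tiles and 28 of falling tiles, the longest of 3 tiles. With at least 30 calls in each of the 4 libraries and 5 CpGs in each tile, 11 rising and 3 falling runs remained, and those with the widest gap between the groups are given here, 4 rising and all 3 falling. Their levels in whole fin at 2 and 0 dpa chose them. The limma adjusted p of their best tile was 0.201 to 0.480.

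The widest gap was in 26 CpGs at 7893000 to 7893999 on chromosome 19. This run was at 36.65% and 34.3% at 2 dpa (161 and 134 calls), against 2.33% and 6.57% at 0 dpa (172 and 198 calls). It was at 28.6% and 37.2% at 1 dpa. At 4 dpa it was at 9.58% and 17.1%, above both 0 dpa libraries. In sp7- cells it was at 33.4% and 16.9% at 4 dpa, against 20.7% and 10.7% at 0 dpa, and in sp7+ cells at 19.7% and 11.5%, against 13.4% and 10.1%. The libraries of both cell types overlapped between the times, so the times did not separate in sorted cells. Whole fin at 0 dpa lay below every sorted library of the uninjured fin, so the low start of this run was not seen in sorted cells. The choice of the run by its whole fin levels favours such a gap.

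The second, 28 CpGs at 42467000 to 42467999 on chromosome 10, was at 44.6% and 46.2% at 2 dpa (276 and 199 calls), against 17.55% and 18.0% at 0 dpa (188 and 222 calls). It stood at 38.0% and 30.6% at 1 dpa and 28.4% and 27.2% at 4 dpa. In sp7- cells it was at 21.6% and 25.4% at 4 dpa, against 9.65% and 8.96% at 0 dpa, without overlap. In sp7+ cells it was at 11.1% and 6.59% at 4 dpa, against 6.65% and 4.39% at 0 dpa, with overlap (6.59% against 6.65%). Whole fin at both times lay above both sorted cell types of the uninjured fin.

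The other 2 rising runs were at intermediate levels. The run at 30909500 to 30910499 on chromosome 10 (18 CpGs) was at 70.5% and 81.2% at 2 dpa, against 49.3% and 42.6% at 0 dpa, but its 1 dpa libraries were far apart, at 67.65% and 41.1%. The run at 25461000 to 25461999 on chromosome 17 (14 CpGs) was at 66.98% and 64.3% at 2 dpa, against 36.6% and 37.7% at 0 dpa. In sp7- cells that run was at 42.9% and 40.3% at 4 dpa, against 36.0% and 41.9% at 0 dpa. In sp7+ cells it was at 32.6% and 24.3%, against 28.8% and 34.1%. In neither run did the time points separate in sorted cells.

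Of the falling runs, the widest gap was in 28 CpGs at 11626500 to 11627999 on chromosome 4. It was at 26.4% and 36.9% at 2 dpa (345 and 301 calls), against 61.5% and 60.1% at 0 dpa (291 and 276 calls), with 44.6% and 48.3% at 1 dpa and 37.8% and 27.1% at 4 dpa. In sp7- cells it was at 21.95% and 14.4% at 4 dpa, against 56.4% and 57.5% at 0 dpa. In sp7+ cells it was at 60.7% and 61.1% at 4 dpa, against 84.1% and 81.35% at 0 dpa. Both cell types were thus lower at 4 dpa without overlap, and sp7+ cells lay above sp7- cells at both times.

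The run at 21127000 to 21127999 on chromosome 4 (18 CpGs) had the same order. It was at 45.3% and 37.8% at 2 dpa, against 68.4% and 72.1% at 0 dpa, and at 36.8% and 33.0% at 4 dpa. In sp7- cells it was at 36.3% and 24.9% at 4 dpa, against 77.2% and 62.1% at 0 dpa, and in sp7+ cells at 54.97% and 41.3%, against 82.96% and 88.0%. The run at 11626500 to 11627499 on chromosome 8 (11 CpGs) differed. It was at 53.85% and 63.1% at 2 dpa (104 and 65 calls), against 80% and 92.25% at 0 dpa. At 4 dpa it was at 78.3% and 74.0%, below both 0 dpa libraries. It was between 88.5% and 95.45% in the 8 sorted libraries, so that the sorted cells showed no fall of its size. Its difference of -27.7 points was -15.8 points as a mean over CpGs and -10.3 points in tiles of 1000 bp.

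**Figure D5:**
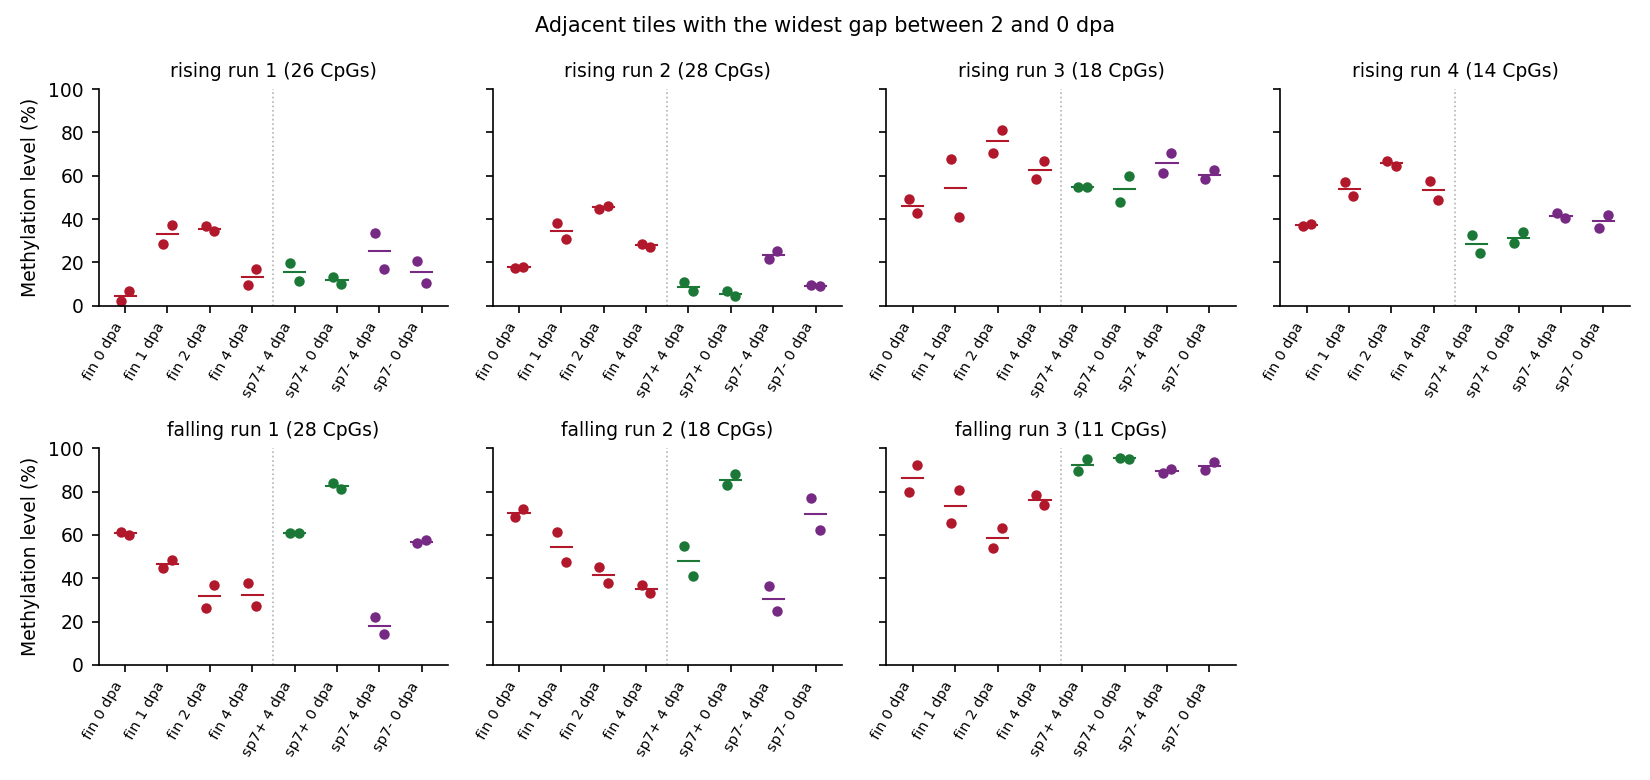
Methylation level in percent (y axis) of the 7 named runs of adjacent tiles in each library (points) with group means (lines); whole fin in red, sp7+ cells in green, sp7- cells in purple. Falling runs 1 and 2 are at 14.4% to 36.3% in sp7- cells at 4 dpa against 56.4% to 77.2% at 0 dpa, whereas falling run 3 is between 88.5% and 95.45% in all sorted libraries.

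The 37 tiles that edgeR called had a median of 16 CpGs (27 higher) and 12.5 CpGs (10 lower), more than changed tiles in general, and in each of them the 2 dpa libraries lay outside the range of 0 dpa. Both tiles of the run on chromosome 19 were among them. Between 4 and 0 dpa the 27 higher tiles had a median difference of 5.03 points in sp7- cells and 0.443 points in sp7+ cells, beside -1.56 and -1.78 points over all tiles. Of these 27 tiles, 7 were more than 10 points higher in sp7- cells and 0 in sp7+ cells. The 10 lower tiles had a median of -24.0 points in sp7- cells and, over the 9 with a value, -9.39 points in sp7+ cells. Of these, 6 were more than 10 points lower in sp7- cells and 4 in sp7+ cells. The largest fall among them was in the tile at 17434000 to 17434499 on chromosome 15 (edgeR adjusted p = 0.0311), which was at 32.4% and 53.5% at 2 dpa, against 88.6% and 81.7% at 0 dpa. Sorted sp7- cells averaged 41.5% there at 4 dpa, against 86.4% at 0 dpa, and sp7+ cells 57.1%, against 81.0%. The largest rise was 69.9 points, in the tile at 60997000 to 60997499 on chromosome 7 (edgeR adjusted p = 0.0311). It was at 65.6% and 74.2% at 2 dpa, against 0% in both 0 dpa libraries, which had 12 and 13 calls. Its sorted means were between 72.4% and 86.9%. The lowest edgeR adjusted p was 0.00122, for the tile at 18024500 to 18024999 on chromosome 6, which was at 61.9% and 59.7% at 2 dpa, against 26.6% and 8.0% at 0 dpa. All sorted means of that tile were between 48.2% and 58.5%, above both of its 0 dpa whole fin libraries. Low 0 dpa levels in whole fin helped to choose both of these higher tiles, which favours such a gap. The single tiles given by position here were picked after their values had been seen.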

How the data were processed

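The deposited values were counts made by the authors: for each CpG, the reads that covered it and those that read as methylated, strands joined, with no normalization. Per the submitters' processing notes and the study's methods, reads were trimmed with Trim Galore 0.4.1 and mapped with Bismark 0.16.1 and Bowtie2 to GRCz10 carrying the variants of the strain, duplicates were removed, and CpGs disrupted by a variant were left out. Whether positions count from 0 or from 1 was not settled.

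Counts were summed per 500 bp tile with at least 10 calls in each of the 4 libraries (Python 3.11.15, numpy 2.4.6). Arcsine-root levels with coverage weights and 1 mean per group were fitted over the 8 whole fin libraries, and separately over the 8 sorted ones. Variances were shrunk with limma 3.58.1 (R 4.3.3) and p-values adjusted by Benjamini-Hochberg. edgeR 4.0.16 was the alternative, with its dispersion taken from 50000 tiles. Both were tested on simulated data. A group had 2 libraries, and no test separates 2 from 2 below p = 0.333 by permutation, which is exact. Alternatives were other minimum calls, tile widths, limits, level definitions, thinning, centring and each library left out.

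The comparison, the tile rule and the lists were chosen with earlier results of these data known. Named were tiles called by limma, the runs with the widest gap (up to 4 per direction) and the 3 chromosomes and 3 windows at each end. Distances, readings by sorted cells and the choice by pairs of libraries were added after the data had been seen.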

Additional observations from a re-analysis of the deposited data

How the results depend on the processing

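The genome-wide difference stayed positive under 11 of 12 alternatives (0.6999 to 1.13 points with a library left out) and is 0 by construction after centring, which also left 1 chromosome higher without overlap and gave -1.20 points for starts at 90 to 100%, 0.241 points for 5 to 9 CpGs and -0.680 points for 40 or more CpGs. With a library left out the values were 0.894 to 1.41 points for 5 to 9 CpGs and -0.445 to 0.918 points for 40 or more, and tiles of 250 bp gave 1.66 points for 40 or more. The gain at starts of 20 to 30% stayed within 3.61 to 5.38 points. It could not be computed with a 0 dpa library left out, since start and difference need separate libraries. Tiles called were 37 with edgeR, 2 in tiles of 1000 bp and 0 to 5 with a library left out. Replicate numbers are shared by the groups, but only as numbers (correlation of deviations 0.00077, 2 pairs), and a replicate block called 0 tiles.

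Counts of rising and falling tiles followed the limits: 51192 and 25769 over 15 points, 344 and 149 over 40 points, 18152 and 10224 at 5 calls, 2597 and 837 at 20, 1183 and 344 at 30, 14229 and 7890 as a mean over CpGs, 14441 and 6334 in tiles of 250 bp, and 3151 and 1406 in tiles of 1000 bp. With a library left out they were 18644 to 21806 and 8098 to 14651, since no overlap is easier to reach with 3 libraries.

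In rising tiles the sp7- difference between 4 and 0 dpa was 3.27 points at 20 calls, 3.99 at 30 and 0.376 as a mean over CpGs, and sp7+ minus sp7- cells at 4 dpa was -5.07, -5.84 and -2.38 points (-4.875 to -2.37 with a library left out). In falling tiles the sp7- difference was -6.96 points over 40 points, -3.96 at 5 calls, -9.07 at 20, -12.0 at 30 and -2.71 as a mean over CpGs (-6.47 to -2.86 with a library left out). The sp7+ difference was -3.52, -3.115, -5.45, -7.32 and -2.30 points in the same order, and -3.62 in tiles of 1000 bp (-4.38 to -2.47). Between cell types, sp7+ minus sp7- at 0 dpa was -0.773, 0.281, 1.27, 2.38 and -0.0145 points in that order and 0.509 after thinning (0.0862 to 0.763). At 4 dpa it was 4.89 points at 20 calls, 7.06 at 30 and 0.396 as a mean over CpGs (0.476 to 3.10). The causes were not tested. Coverage was 4.92 to 6.39 reads with 2 libraries a group, and at 30 calls limma called 0 tiles too (70056 at an unadjusted p under 0.05).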

Other observations

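Tiles were also read by their distance from the 46577 tiles that were under 10% in both sorted cell types at 0 dpa. The tile next to such a tile was 2.08 points higher at 2 dpa, with 50.3% and 50.5% against 48.4% and 48.2% at 0 dpa. At 2 tiles away the difference was 0.921 points, with 78.8% and 79.0% against 78.2% and 77.8%. It was 0.695 points at 11 to 40 tiles away. Over 40 tiles away, where 53.59% of all tiles lay, it was 0.973 points, so there was no steady decline with distance. The libraries did not overlap in any of these classes. The border tiles were 1.31% of all tiles, 3.14% of rising tiles and 3.34% of falling tiles. They are also the class with intermediate levels, and whether distance adds to the starting level was not tested.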
